A study of Homo sapiens with 12 samples.

Results

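The keratin genes of DU145 prostate cancer spheroids were taken as every gene whose symbol is KRT followed by a number and, in some cases, letters, which leaves out the keratin-associated proteins. This gave 56 genes of the 26485 in the deposited tables, and the gene descriptions given with the counts name 28 type I keratins, 27 type II keratins and 1 pseudogene, KRT42P. Of the 56 genes, 11 had 10 or more counts in every sample of at least 1 line, and 12 passed the filter on low counts that 14732 genes of the whole table passed.

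DU145 is an established human prostate cancer cell line, and poly(A) RNA was sequenced from 12 spheroid samples, with 4 biological replicates of each of 3 lines. All 3 lines carry a CRISPR-Cas9 knock-out of the α2 integrin gene ITGA2, so that no line with the intact gene was compared. DU145KO was transfected with no further vector, DU145KO+vector was stably transfected with the empty pawneo2 expression vector, and DU145KO+α2 with the same vector carrying α2 integrin cDNA. Spheroids of 8000 cells were kept for 72 hours in serum-free medium. The knock-out population was selected for GFP from the CRISPR-Cas9 plasmid and cleared of cells with α2 integrin on the surface, and both transfected lines were maintained in geneticin, whereas DU145KO was not. A difference from DU145KO to a transfected line therefore cannot be told apart from transfection and drug selection, and each line is 1 transfected population.

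Keratins are the intermediate filament proteins of epithelial cells. An acidic type I chain pairs with a basic type II chain, the pairs assemble into filaments, and the filaments are anchored at desmosomes and hemidesmosomes. Which pair a cell makes follows its epithelium: KRT8 with KRT18, often joined by KRT7 and KRT19, in simple and glandular epithelia, KRT5 with KRT14 in basal cells of stratified epithelia and of the prostate, KRT1 with KRT10 in the upper epidermis, and the hair keratins, among them KRT81, KRT83 and KRT86, in the hair shaft.

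Libraries held from 13948734 to 19988111 counts, and 3 counts, the detection limit, came to 0.150 to 0.215 CPM, a count scaled by library size and edgeR's TMM factor. ITGA2 lay between 259 and 332 CPM in the 4 samples of DU145KO+α2, against 15.7 to 25.8 CPM in DU145KO and 13.0 to 20.2 CPM in DU145KO+vector. This shows the cDNA in the line labelled with it, while an edited gene can still be transcribed, so the RNA level does not check the knock-out. The epithelial markers EPCAM, CDH1, ESRP1, ESRP2, CLDN4 and CLDN7 were above 3 counts in every sample. The prostate luminal markers KLK3, KLK2 and HOXB13 and the prostate basal markers TP63, KRT5 and KRT14 were at or below 3 counts in every sample. Of the 6 leukocyte and endothelial markers, PTPRC was at or below 3 counts throughout and 4 were above 3 counts in every sample, with the list summing to 4.31 to 7.50 CPM over the 12 samples. CDH2 and LUM, of the mesenchymal list, had no count, and 5 of its 11 genes, VIM among them, were above 3 counts in every sample.

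Near-identical copies decide how far the values of single keratin genes can be read, and the sequences below are shown for that reason. Reads were 50 bases long and the authors counted only reads that aligned to 1 place. KRT81, KRT83 and KRT86 are neighbouring type II hair keratin genes on chromosome 12 of the hg38 (GRCh38) build. KRT81 lies at chr12:52285913-52291534 on the minus strand, KRT83 at chr12:52314301-52321398 on the minus strand and KRT86 at chr12:52249300-52309163 on the plus strand. By the GENCODE annotation, KRT81 sits inside an intron of the long KRT86 transcript on the opposite strand, and their exons do not overlap. The third coding exon of each gene, 61 bases, is given on the coding strand from 5′ to 3′, with capitals at the 11 positions where the 3 genes are not all alike.
KRT81, chr12:52289215-52289275, minus strand: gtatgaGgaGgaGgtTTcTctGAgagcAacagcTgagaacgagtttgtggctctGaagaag
KRT86, chr12:52304111-52304171, plus strand: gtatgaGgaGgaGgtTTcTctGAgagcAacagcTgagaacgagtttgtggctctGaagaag
KRT83, chr12:52317910-52317970, minus strand: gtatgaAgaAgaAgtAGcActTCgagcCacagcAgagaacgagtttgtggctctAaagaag
In this exon KRT81 and KRT86 were 100% identical, as they were over the 209 bases of the second coding exon, and KRT83 was 82.0% identical to both. A read that lay wholly in such an exon could be given to neither KRT81 nor KRT86.

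The fifth coding exon, 165 bases, is shown because all 3 genes differ from each other there, with capitals at the 12 positions where the 3 genes are not all alike.
KRT81, chr12:52287984-52288148, minus strand: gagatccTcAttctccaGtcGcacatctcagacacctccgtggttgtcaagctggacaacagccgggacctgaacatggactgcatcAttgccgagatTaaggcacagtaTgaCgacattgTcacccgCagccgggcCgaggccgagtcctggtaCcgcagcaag
KRT86, chr12:52305240-52305404, plus strand: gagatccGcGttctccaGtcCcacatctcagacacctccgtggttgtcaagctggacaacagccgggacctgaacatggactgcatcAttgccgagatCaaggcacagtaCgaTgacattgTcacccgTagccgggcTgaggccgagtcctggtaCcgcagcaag
KRT83, chr12:52316859-52317023, minus strand: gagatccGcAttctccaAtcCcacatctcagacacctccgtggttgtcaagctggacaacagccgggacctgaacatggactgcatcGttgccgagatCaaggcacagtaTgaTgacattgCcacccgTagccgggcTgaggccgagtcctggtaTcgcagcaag
Here KRT81 was 95.2% identical to KRT86 and 93.9% identical to KRT83. KRT83 and KRT86 were 96.4% identical. KRT81 and KRT86 still shared an unbroken run of 77 bases, so in this exon only a read that covers a differing position can be assigned.

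Over the whole transcript sets, 44.6% of the 50-base windows of KRT81 occurred in transcripts of another gene, and KRT86 alone held 38.4%. For KRT86 the share was 41.5%, with 30.4% held by KRT81. KRT83 shared 12.8% of its windows. Among the keratins of simple epithelium, KRT18 shared 25.6% of its windows, 13.3% with KRT8, and KRT8 shared 16.1%, since both have many processed pseudogenes and their annotated exons overlap on opposite strands over 525 bases. The other 6 of the 11 genes shared between 0.363% (KRT80) and 5.89% (KRT7). Values of KRT81, KRT86, KRT18 and KRT8 are therefore less certain than those of KRT7, KRT19, KRT80, KRT10, KRT15 and KRT32. The library kit marks strand, but the strand setting of the counting is not given in the sources used here, so reads of KRT8 and KRT18 in the 525 shared bases are uncertain as well.

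**Figure D1:**
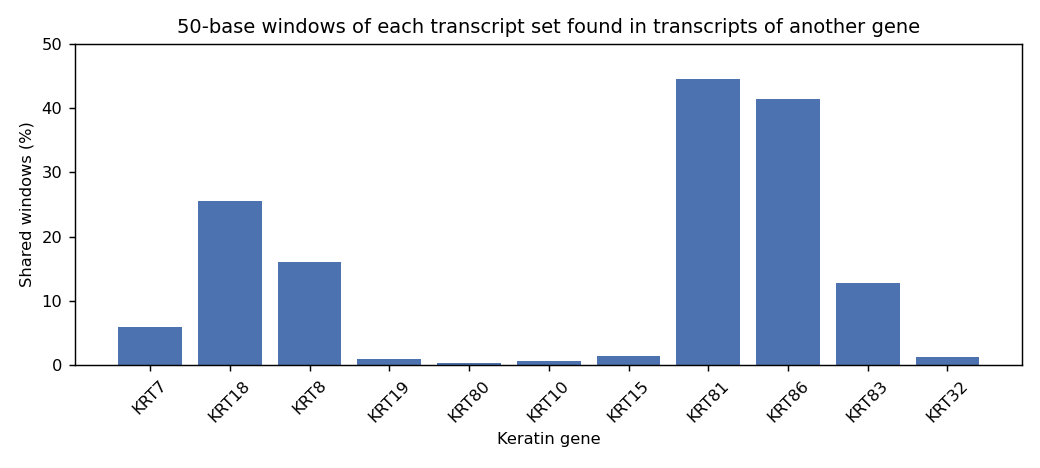
Share of the 50-base windows of each keratin gene's annotated transcripts that also occur in transcripts of another gene (bars, percent), for the 11 genes with 10 or more counts in every sample of a line. KRT81 (44.6%) and KRT86 (41.5%) stand highest, KRT18 (25.6%) and KRT8 (16.1%) follow, and KRT80, KRT10 and KRT19 are below 1%.

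Keratin RNA in these spheroids was mainly that of simple epithelium. Of the 7 simple epithelial keratins listed, 5 had 10 or more counts in every sample of all 3 lines (KRT7, KRT8, KRT18, KRT19 and KRT80), and KRT20 had no count and KRT23 did not pass 1 count in any sample. KRT15, a type I keratin of basal cells, and KRT10, the type I keratin of the upper epidermis, were also at 10 or more counts in all samples, although KRT5 and KRT1, type II chains of the same layers, were not: KRT5 did not pass 2 counts in any sample, and KRT1 had no count. Of the 17 hair shaft keratins, 4 reached 10 counts in every sample of a line (KRT32, KRT81, KRT83 and KRT86). The remaining 13 stayed at or below 3 counts.

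By line, the limit of 10 counts in every sample was met by 10 keratin genes for DU145KO and for DU145KO+α2 and by 11 for DU145KO+vector, and the same 10 genes met it in all 3 lines. The gene that met it only in DU145KO+vector was KRT32, a type I hair keratin, with 17, 14, 17 and 12 counts in replicates 1 to 4. It had 9, 12, 9 and 6 counts in DU145KO and 8, 21, 14 and 11 counts in DU145KO+α2, so in those lines it fell on both sides of the limit. The difference between lines in this list is thus a matter of a few counts of 1 gene near the limit.

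Of the other 45 genes, 5 passed 3 counts in some sample without reaching 10 in all samples of a line. KRT3, a corneal type II keratin, ranged from 4 to 25 counts, KRT4, of mucosal epithelium, from 1 to 11, and the pseudogene KRT42P from 3 to 10. KRT16, a wound-induced keratin, and KRT222 did not pass 4 counts. The other 40 genes were at or below 3 counts in every sample, and 16 of them had no count at all. All 8 inner root sheath keratins belonged to these, with at most 1 count, as did 6 of the 7 barrier, wound and duct keratins and 9 of the 12 keratins of differentiated layers. At this depth a gene with no count in a library could be present at up to 0.150 to 0.215 CPM, an upper limit that covers counting error only.

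Levels of different genes were compared as the authors' RPKM, which scales counts by gene length and library size. KRT7 had 394, 329, 498 and 269 RPKM in replicates 1 to 4 of DU145KO, with a mean of 373 ± 97.8 (SD, n = 4). KRT18 had 251 ± 33.9, KRT8 227 ± 52.3 and KRT19 139 ± 11.5 RPKM in the same line. The type II genes KRT7 and KRT8 and the type I genes KRT18 and KRT19 thus made up the upper tier, and the order of KRT18 and KRT8 was not resolved, since the ranges over samples (228 to 301 and 174 to 275 RPKM) overlapped.

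A middle tier held KRT80, a type II keratin of many epithelia, with 17.3 ± 2.7 RPKM in DU145KO, KRT10 with 16.1 ± 1.77 and KRT15 with 12.4 ± 1.73. The samples of KRT80 ranged from 15.3 to 21.2 and those of KRT10 from 13.5 to 17.5, so these neighbours did not differ beyond their spread. Hair keratins formed the lowest tier in DU145KO, with KRT81 at 4.57 ± 1.24, KRT86 at 1.13 ± 0.274, KRT83 at 0.889 ± 0.371 and KRT32 at 0.276 ± 0.0778 RPKM. The ranges of KRT86 (0.805 to 1.47) and KRT83 (0.433 to 1.22) overlapped, while those of KRT81 and KRT86 did not.

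**Figure D2:**
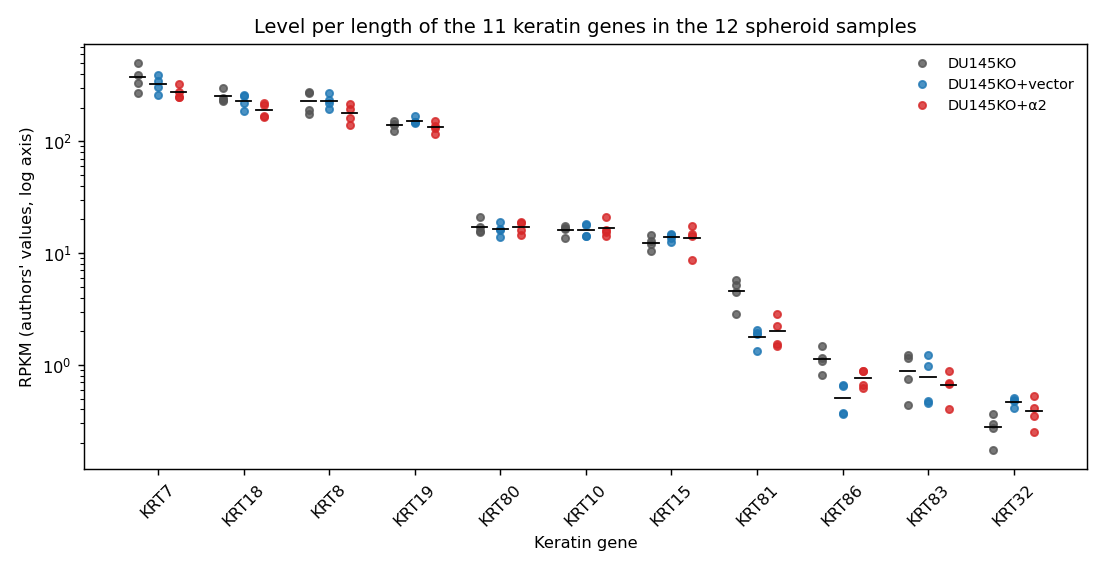
Level per length of the 11 keratin genes in the 12 samples (points, authors' RPKM on a log axis, coloured by line) with the mean of each line (bar). The points fall into tiers: KRT7, KRT18, KRT8 and KRT19 above 100 RPKM, KRT80, KRT10 and KRT15 between 8.65 and 21.2 RPKM, and the hair keratins between 0.174 and 5.69 RPKM.

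Summed over all keratin genes, the level was 1044 ± 119 RPKM in DU145KO, 986 ± 87.4 in DU145KO+vector and 830 ± 105 in DU145KO+α2 (SD, n = 4 each). The ranges of DU145KO+α2 (727 to 949) and DU145KO+vector (908 to 1090) overlapped, as did that of DU145KO (911 to 1169), so single samples did not separate the lines. Within the same replicate number, the α2 line was the lower in 4 of 4 numbers against the vector line (886 and 1026, 949 and 1090, 727 and 919, 757 and 908 RPKM in numbers 1 to 4) and in 3 of 4 against DU145KO. No test was made of this sum. KRT7, KRT8, KRT18 and KRT19 together supplied 94.9% of the summed level in DU145KO, 94.8% in DU145KO+vector and 93.7% in DU145KO+α2. Keratin genes took 0.190%, 0.179% and 0.149% of all counts in the same order.

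Chains of both types are needed for a filament, and type II genes supplied 59.6% ± 3.30 of the summed RPKM in DU145KO, 58.2% ± 1.86 in DU145KO+vector and 57.0% ± 0.318 in DU145KO+α2. The share thus differed little between lines relative to its spread. The ratio of KRT8 to its partner KRT18, in RPKM, was 0.900 ± 0.150 in DU145KO, 1.01 ± 0.0985 in DU145KO+vector and 0.932 ± 0.0797 in DU145KO+α2. Over the 12 samples, the log2 CPM of KRT8 and KRT18 had a Pearson correlation of 0.817, against 0.330 for KRT7 and KRT19. These coefficients are descriptions over samples of 3 lines prepared with the same library kit, and the exons of KRT8 and KRT18 overlap.

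Expression was compared between the lines with edgeR's quasi-likelihood test, fitted over all 14732 genes and 12 samples, and a gene was called at a Benjamini-Hochberg adjusted p below 0.05. The 3 comparisons share samples, so their values are given side by side and are not independent. In bulk RNA, a lower proportion of cells that express a gene and less of its RNA per cell cannot be told apart.

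Returning α2 integrin to the knock-out cells is compared with the empty vector. In this comparison edgeR called 0 of the 12 keratin genes tested, where 11.9% of all genes were called in either direction (5.96% higher and 5.95% lower, 2.21% with a fold change above 2 as well). The counts by DESeq2's Wald test and by voom with limma were 0 as well, and 2 of the 12 genes were below an unadjusted p of 0.05, against 24.9% of all genes. The log2 fold changes of 8 of the 12 were below zero, with a median of -0.19 beside -0.01 over all genes. No keratin gene had samples that did not overlap between these lines, a property of 17.2% of all genes.

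KRT8 and KRT18, the keratin pair of simple epithelium, were the genes whose call depended on the design of the fit. In the α2 line, replicates 1 to 4 held 479, 443, 320 and 368 CPM of KRT8, and in the vector line 614, 501, 442 and 528 CPM. KRT18 had 321, 335, 258 and 254 CPM against 385, 394, 289 and 342 CPM. For both genes the lines overlapped, but within every replicate number DU145KO+α2 was the lower, in 4 of 4 numbers.

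The log2 fold change of KRT8 was -0.37 (SE 0.16, edgeR adjusted p = 0.168), and with the replicate number as a block its adjusted p was 0.0354. For KRT18 the change was -0.27 (SE 0.12, edgeR adjusted p = 0.172), with an adjusted p of 0.00597 under the block. The blocked fit called 26.5% of all genes in either direction and 13.7% lower, and of the keratin genes 2 of 12 (16.7%), both lower. The shares were not compared by a test.

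KRT7 and KRT19 had lower values in the α2 line too within 4 of 4 replicate numbers. Their log2 fold changes of -0.24 (SE 0.17) and -0.18 (SE 0.09) did not pass the test with or without the block. KRT80, KRT10 and KRT15 had log2 fold changes of 0.06, 0.05 and -0.02, each within its SE. Among the hair keratins KRT86 had a log2 fold change of 0.58 (SE 0.28, edgeR adjusted p = 0.210) and KRT81 of 0.17 (SE 0.25, edgeR adjusted p = 0.743).

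**Figure D3:**
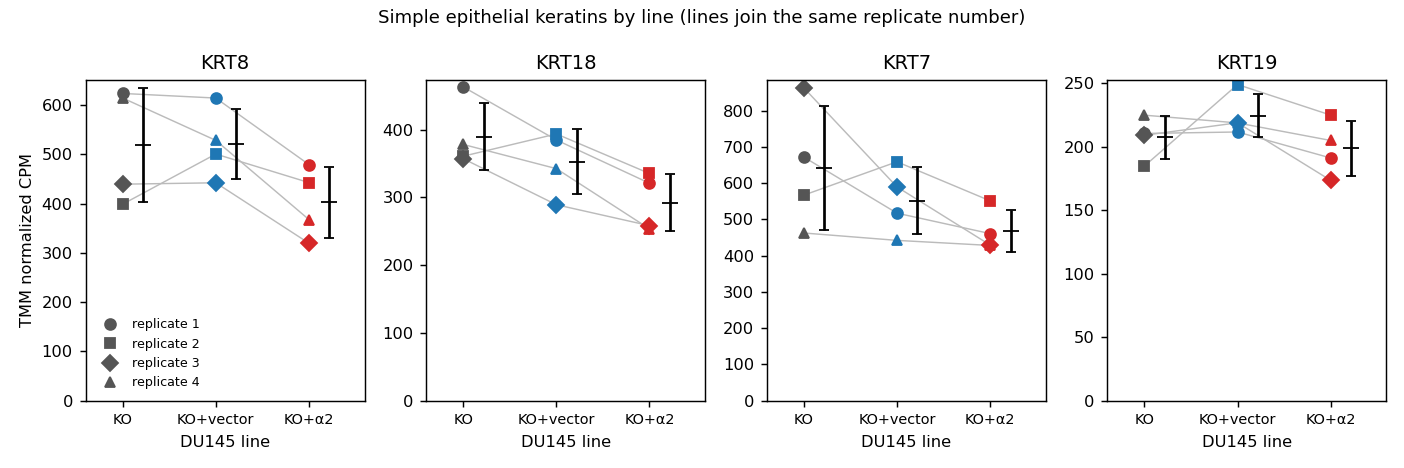
TMM-normalized CPM of KRT8, KRT18, KRT7 and KRT19 in DU145KO (KO), DU145KO+vector (KO+vector) and DU145KO+α2 (KO+α2), with a marker for each replicate number, grey lines joining samples of the same number and the mean ± SD (n = 4) beside the points. From vector to α2 all 4 grey lines go down in each of the 4 panels, while the points of the lines overlap.

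The α2 line was next set against the untransfected knock-out, a comparison that holds the effects of the vector and of geneticin as well as of α2 integrin. KRT81 and KRT18 were lower in DU145KO+α2, which is 2 of 12 keratin genes (16.7%), where 8.17% of all genes were called in either direction and 5.08% were called lower. No keratin gene was called higher, as 3.09% of all genes were, and 1 of the 12, KRT81, was called with a fold change above 2, against 2.1% of all genes. At an unadjusted p below 0.05 there were 6 of 12, against 21.4% of all genes. The median log2 fold change of the 12 genes was -0.39, beside 0.00 over all genes, and 9 of the 12 were below zero.

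KRT81 had 9.99, 8.74, 11.1 and 5.50 CPM in replicates 1 to 4 of DU145KO, from 151, 143, 180 and 94 counts. DU145KO+α2 had 4.16, 5.40, 2.95 and 2.86 CPM, from 67, 108, 50 and 45 counts. Every DU145KO sample was above every DU145KO+α2 sample, although replicate 4 of DU145KO (5.50) came close to replicate 2 of DU145KO+α2 (5.40). The gene was 2.27-fold lower in DU145KO+α2, a log2 fold change of -1.18 (SE 0.23, edgeR adjusted p = 0.00447).

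KRT18 had 463, 361, 357 and 378 CPM in DU145KO, and its 4 samples of DU145KO+α2 were between 254 and 335 CPM. The lines did not overlap, and within every replicate number DU145KO+α2 was lower. The change was small, -0.42 on the log2 scale (SE 0.12, edgeR adjusted p = 0.0434), and the adjusted p was 0.000166 with the replicate block. The call was lost when any 1 of 8 samples was left out, replicates 1, 2 and 4 of DU145KO, 1, 3 and 4 of DU145KO+α2, and 1 and 4 of DU145KO+vector, with adjusted p from 0.0538 to 0.149. Samples of these lines did not overlap for 2 of the 12 keratin genes, KRT18 and KRT81, against 12.9% of all genes.

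Other keratins of simple epithelium moved less clearly against DU145KO. KRT8 had 624, 399, 439 and 614 CPM in DU145KO, a spread that enclosed part of the DU145KO+α2 samples. Its log2 fold change was -0.37 (SE 0.16, edgeR adjusted p = 0.207), and the adjusted p with the block was 0.0476. KRT7 had 672, 567, 863 and 463 CPM in DU145KO and between 428 and 551 CPM in DU145KO+α2, a log2 fold change of -0.46 (SE 0.17, edgeR adjusted p = 0.134). Without replicate 4 of DU145KO, its lowest sample, KRT7 was called, with a log2 fold change of -0.58 and an adjusted p of 0.0304. KRT19 differed by -0.06 (SE 0.09).

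In the blocked fit 4 of the 12 keratin genes were called lower, KRT3, KRT8, KRT18 and KRT81, where 22.3% of all genes were called in either direction and 12.4% lower. KRT3 had 25, 12, 4 and 12 counts in DU145KO and 8, 8, 4 and 5 counts in DU145KO+α2. With so few counts, its log2 fold change of -1.16 (SE 0.49) had an edgeR adjusted p of 0.180 without the block and 0.0341 with it. KRT10, KRT15 and KRT80 had log2 fold changes of 0.03, 0.14 and -0.03, with SEs from 0.12 to 0.16.

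The vector line was then set against the untransfected knock-out, lines that both lack α2 integrin. The hair keratins KRT81 and KRT86 were lower in DU145KO+vector, which is 2 of 12 genes (16.7%), where 2.34% of all genes were called in either direction and 1.84% lower. Both called changes exceeded 2-fold, which held for 0.835% of all genes. No keratin gene was called higher, against 0.496% of all genes, and the median log2 fold change was -0.12, beside 0.00 over all genes. At an unadjusted p below 0.05 there were 3 of 12, against 15% of all genes.

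KRT81 had 3.88, 3.66, 3.62 and 2.55 CPM in replicates 1 to 4 of DU145KO+vector, from 70, 51, 63 and 37 counts. All 4 samples were below the lowest of DU145KO (5.50 CPM), and the gene was 2.56-fold lower, a log2 fold change of -1.35 (SE 0.24, edgeR adjusted p = 0.00656). KRT86 had 2.25, 3.12, 2.46 and 1.70 CPM in DU145KO, from 34, 51, 40 and 29 counts. In DU145KO+vector it had 0.776, 1.36, 1.38 and 0.758 CPM, from 14, 19, 24 and 11 counts.

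KRT86 was thus lower in each DU145KO+vector sample than in any DU145KO sample, and 2.22-fold lower on average, a log2 fold change of -1.15 (SE 0.27, edgeR adjusted p = 0.0323). Without any 1 of 5 samples, replicates 1, 2 and 3 of DU145KO and 1 and 4 of DU145KO+vector, its adjusted p lay between 0.0659 and 0.118. DU145KO+α2 was intermediate, with 1.37, 1.85, 1.30 and 1.85 CPM, a log2 fold change against DU145KO of -0.57 (SE 0.25, edgeR adjusted p = 0.193). Neither comparison of DU145KO+α2 with the other lines passed the test for this gene.

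KRT83, the third of these hair keratins, was not called against DU145KO in either transfected line. Within replicate numbers it was lower than in DU145KO in 4 of 4 for DU145KO+α2 and in 2 of 4 for DU145KO+vector. It had 1.39, 2.20, 2.34 and 0.820 CPM in DU145KO and 0.887, 2.30, 0.863 and 1.86 CPM in DU145KO+vector, from 12 to 38 counts a sample. The lines overlapped throughout, with log2 fold changes against DU145KO of -0.22 (SE 0.37) in DU145KO+vector and -0.43 (SE 0.37) in DU145KO+α2. With these SEs a change of KRT83 as large as that of KRT86 in DU145KO+α2 cannot be told from none.

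Because reads of KRT81 and KRT86 can be confused, the CPM of the 3 hair keratins was also summed within each sample, a measure that a swap among them does not alter. Reads that aligned to more than 1 place were not counted, and the sum does not recover them. KRT81 made up the largest part of it, with means of 8.82 CPM in DU145KO, 3.43 in DU145KO+vector and 3.84 in DU145KO+α2. The sum was 12.9 ± 3.39 CPM in DU145KO, 5.98 ± 0.945 in DU145KO+vector and 6.67 ± 1.60 in DU145KO+α2 (SD, n = 4). DU145KO samples ranged from 8.02 to 15.9, vector samples from 5.17 to 7.32 and α2 samples from 5.48 to 8.90, so that the vector line alone was wholly below DU145KO. The ratio of KRT81 to KRT86 counts was 3.75 ± 0.855 in DU145KO, 3.42 ± 1.11 in DU145KO+vector and 2.45 ± 0.686 in DU145KO+α2. Both genes had counts of their own in every sample.

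**Figure D4:**
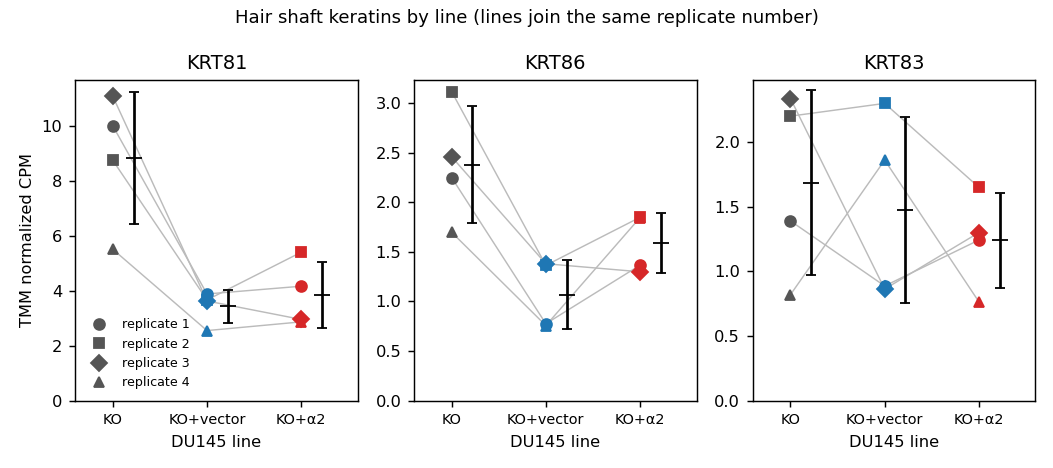
TMM-normalized CPM of KRT81, KRT86 and KRT83 in the 3 lines, with a marker for each replicate number, grey lines joining samples of the same number and the mean ± SD (n = 4) beside the points. KRT81 is lower in all samples of both transfected lines than in DU145KO, KRT86 is lowest in DU145KO+vector, and KRT83 overlaps between all lines.

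KRT32 went the other way in DU145KO+vector. Its samples lay between 0.827 and 1.01 CPM there and between 0.351 and 0.733 CPM in DU145KO, without overlap. The log2 fold change of 0.75 (SE 0.30) rested on 6 to 17 counts a sample and did not pass the test (edgeR adjusted p = 0.249). Samples did not overlap for 3 of the 12 keratin genes in this comparison (KRT32, KRT81 and KRT86), against 8.76% of all genes.

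Keratins of simple epithelium gave no call between the vector line and the knock-out. The log2 fold changes were 0.01 for KRT8 (SE 0.16), -0.14 for KRT18 (SE 0.12), -0.22 for KRT7 (SE 0.17), 0.12 for KRT19 (SE 0.09) and -0.09 for KRT80 (SE 0.12). KRT10 had -0.01 (SE 0.12) and KRT15 0.16 (SE 0.16). The blocked fit called KRT81 and KRT86 only, as the unblocked fit did, where it called 13.4% of all genes in either direction and 7.85% lower.

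**Figure D5:**
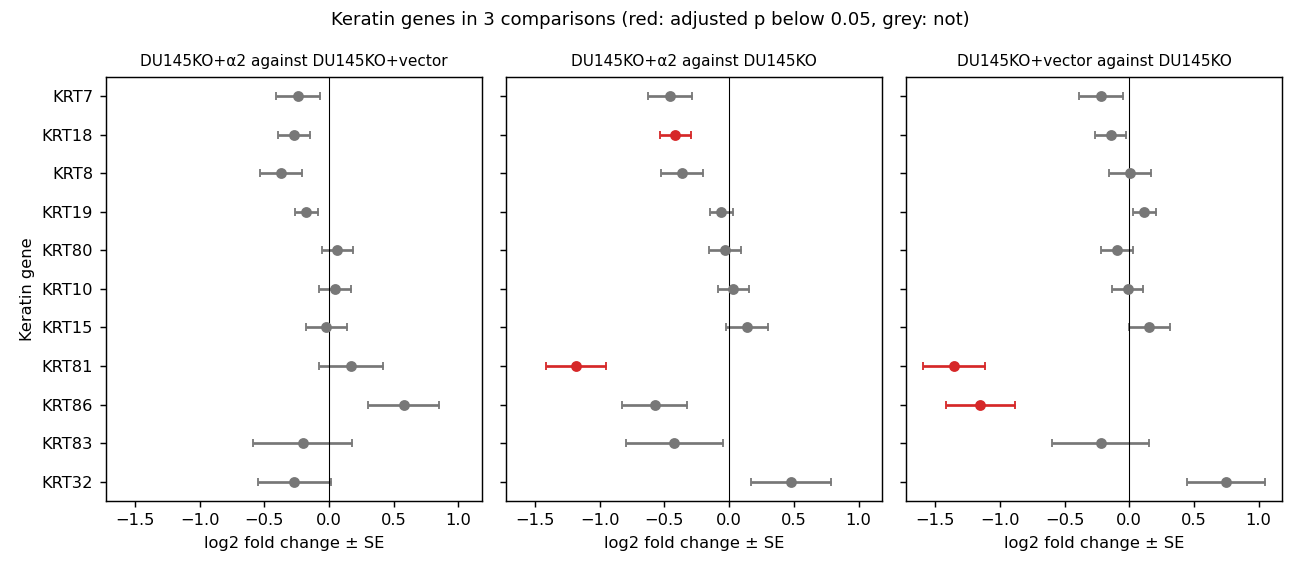
Log2 fold change ± SE of the 11 keratin genes in the 3 comparisons, from edgeR's fit over all genes, with genes at an adjusted p below 0.05 in red. KRT81 and KRT18 are red against DU145KO in the α2 line, KRT81 and KRT86 are red in the vector line, and none is red between α2 and vector.

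KRT81 was thus the only keratin gene called against DU145KO in both transfected lines, and DU145KO samples are shared by these comparisons. The 5 other genes whose log2 CPM followed KRT81 most closely over the 12 samples were FAM110C (Pearson correlation 0.966), ARHGEF37 (0.951), the long noncoding RNA BLACAT1 (0.947), PORCN (0.942) and TNS2 (0.937). BLACAT1 had a mean of 2.30 CPM in DU145KO, 0.806 in DU145KO+vector and 0.963 in DU145KO+α2. For KRT86 the closest genes included NKD2 (0.930), TMEM184A (0.925), ALPK3 (0.892) and ZNF467 (0.879). These genes were chosen for the likeness, and the coefficients over 3 lines are descriptions.

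The non-keratin genes within 2 Mb of the keratin clusters were examined beside the keratins. Around the type II cluster on chromosome 12, which also holds KRT18, 58 such genes were tested, and their median log2 fold change was -0.06 in DU145KO+vector against DU145KO and 0.00 in DU145KO+α2 against DU145KO. Of them 0 were called higher and 2 lower in the vector comparison, where 0.496% and 1.84% of all genes were, and 1 was higher and 5 lower in the α2 comparison, where 3.09% and 5.08% of all genes were. Between α2 and vector 4 were higher and 3 lower, where 5.96% and 5.95% of all genes were, with a median of 0.06. Around the type I cluster on chromosome 17 the 91 genes tested had medians of -0.03 and -0.01, with 0 higher and 2 lower in the vector comparison and 1 higher and 4 lower in the α2 comparison. Between α2 and vector 7 of these were higher and 6 lower. The shares of all genes given for the chromosome 12 cluster apply to these counts as well.

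Proteins that anchor or bind keratin filaments were taken as a list of 18 genes, all of them tested. Against DU145KO+vector 3 were lower in DU145KO+α2, ITGB4, PKP1 and SFN, and 0 were higher, where 5.95% of all genes were called lower and 5.96% higher. With the replicate block 6 were lower, the added ones being DST, JUP and ITGA6, and PKP2 was higher. Against DU145KO 4 were lower in DU145KO+α2 (DSP, ITGB4, PKP1 and SFN), where 5.08% of all genes were. With the block 6 were lower, where 12.4% of all genes were. In DU145KO+vector 1 was lower (DSP), where 1.84% of all genes were. With the block 3 were lower and 1 higher, where 13.4% of all genes were called in either direction and 7.85% lower. The medians of the list were -0.06, -0.12 and -0.12 in the 3 comparisons, in the order α2 against vector, α2 against DU145KO and vector against DU145KO.

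ITGB4, the integrin subunit that ties keratins to hemidesmosomes, was at 18.9 to 25.3 CPM in DU145KO+α2, 32.8 to 44.4 in DU145KO+vector and 43.0 to 44.8 in DU145KO. Its log2 fold change was -0.82 (SE 0.10) against the vector line and -0.99 (SE 0.10) against DU145KO. DSP, the desmoplakin that anchors keratins at desmosomes, was at 150 to 186 CPM in DU145KO, 49.0 to 72.4 in DU145KO+α2 and 42.7 to 64.0 in DU145KO+vector. It fell in both transfected lines, with log2 fold changes of -1.44 (SE 0.14) and -1.66 (SE 0.14), and like KRT81 its samples there did not overlap DU145KO. SFN, the 14-3-3 protein that binds keratins, had log2 fold changes of -0.54 (SE 0.16) against the vector line and -0.83 (SE 0.16) against DU145KO in DU145KO+α2. The first of these calls was lost with no filter on low counts (edgeR adjusted p = 0.0709) and without any 1 of 7 samples, replicate 4 of DU145KO, 1, 2 and 3 of DU145KO+α2, and 1, 3 and 4 of DU145KO+vector (0.0513 to 0.112).

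Of 12 other intermediate filament proteins tested, 3 were higher in DU145KO+α2 than in the vector line (GFAP, NEFL and NEFM), where 5.96% of all genes were, and 0 were lower. The list median was -0.01 on the log2 scale. With the block 4 were higher, NES being added, and 1 was lower, LMNA. The blocked fit called 26.5% of all genes in either direction and 13.7% lower. Against DU145KO, GFAP was the 1 gene higher in DU145KO+α2, where 3.09% of all genes were. With the block 4 were higher (GFAP, NEFL, NES and VIM), where 22.3% of all genes were called in either direction and 12.4% lower. In DU145KO+vector 0 of the 12 were called against DU145KO without the block, where 2.34% of all genes were. With the block VIM was higher and GFAP, INA and NEFM were lower, where 13.4% of all genes were called in either direction. GFAP, the filament protein of astrocytes, was at 11.3 to 15.9 CPM in DU145KO+α2, 3.79 to 6.82 in DU145KO+vector and 4.77 to 7.81 in DU145KO. The log2 fold changes were 1.47 (SE 0.19, edgeR adjusted p = 0.000168) and 0.98 (SE 0.19). NEFM, a neurofilament subunit, was at 2.67 to 3.54 CPM against 0.978 to 1.52 in the vector line, a log2 fold change of 1.30 (SE 0.22).

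Transcription factors tied to epithelial keratin genes gave 10 tested genes of 16. ELF3, an epithelial ETS factor, and OVOL2, a zinc finger factor, were lower than in DU145KO in both transfected lines, 2 of 10 each. Of all genes 5.08% were called lower in DU145KO+α2 and 1.84% in DU145KO+vector. With the block 4 of the 10 were lower in DU145KO+α2 and 5 in DU145KO+vector, where 12.4% and 7.85% of all genes were. ELF3 was at 171 to 215 CPM in DU145KO, 130 to 146 in DU145KO+α2 and 140 to 154 in DU145KO+vector, with log2 fold changes of -0.40 (SE 0.08) and -0.34 (SE 0.08). The second call was lost with the compared lines alone (edgeR adjusted p = 0.0643) and without any 1 of 6 samples, replicates 1 and 2 of DU145KO and each of DU145KO+vector (0.0509 to 0.111). GATA3 was the 1 gene of the 10 called between the α2 and vector lines, where 5.96% of all genes were called higher. The log2 fold change of GATA3 was 0.82 (SE 0.24). Its call was lost with the compared lines alone (edgeR adjusted p = 0.0560) and without any 1 of 5 samples, replicates 2, 3 and 4 of DU145KO+α2 and 1 and 3 of DU145KO+vector (0.0546 to 0.102). With the block TFAP2A was higher as well and KLF4 lower, where 26.5% of all genes were called in either direction.

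Of the 14 genes of the cornified envelope and late differentiation in the tables, 3 were tested. S100A9 was lower than in DU145KO in DU145KO+α2 (-1.51, SE 0.41) and DU145KO+vector (-2.16, SE 0.42), where 5.08% and 1.84% of all genes were. The first call was lost without any 1 of 11 samples, all but replicate 3 of DU145KO (edgeR adjusted p 0.0532 to 0.114), and the second without replicate 2 of DU145KO or replicate 2, 3 or 4 of DU145KO+vector (0.0513 to 0.0996). Neither passed with no filter on low counts or with the compared lines alone. With the block TGM1, a transglutaminase of the envelope, was higher in DU145KO+α2 than in the knock-out. In that comparison the blocked fit called 22.3% of all genes in either direction.

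Epithelial markers differed between the lines as well. The summed level of the 6 markers named above was 456 to 555 CPM in DU145KO, 284 to 314 in DU145KO+vector and 289 to 389 in DU145KO+α2, without overlap between DU145KO and either transfected line. Of these markers, 4 were lower in DU145KO+α2 than in DU145KO, where 5.08% of all genes were. Among them were ESRP1 (log2 fold change -3.65, SE 0.26) and CDH1 (-1.13, SE 0.16). In DU145KO+vector 4 were lower than in DU145KO, where 1.84% of all genes were. Among these were ESRP1 (-3.00, SE 0.24) and EPCAM (-0.83, SE 0.11). Between α2 and vector 2 were lower and 1, CLDN4, was higher (1.07, SE 0.19), where 5.95% and 5.96% of all genes were. The mesenchymal markers summed to 493 to 592 CPM in DU145KO, 587 to 742 in DU145KO+vector and 585 to 730 in DU145KO+α2. VIM alone held 455 to 559, 548 to 703 and 541 to 684 CPM in the same order, and was called against DU145KO only with the block. ZEB2 was higher in DU145KO+vector than in DU145KO (1.58, SE 0.38). PDGFRB was lower in DU145KO+α2 than in DU145KO (-1.48, SE 0.42) and than in the vector line (-1.47, SE 0.42). These changes rested on few counts, 2 to 12 a sample for PDGFRB and 6 to 38 for ZEB2. The part of the epithelial and mesenchymal markers in the keratin differences was not tested.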

How the data were processed

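Spheroids of 3 DU145 lines were sequenced as 12 libraries, 4 per line. The authors base called with bcl2fastq 1.8.4, aligned single-end reads of 50 bases to hg38 with TopHat2 2.1.0 and counted uniquely aligned reads per gene with Subread 1.5.0. The strand setting and annotation are not given in the sources used here. The deposited raw counts per gene were used for every test. The authors' deposited RPKM values, divided by gene length, were used for levels across genes, and their normalization factors differed from TMM factors by at most 1.66%. Total counts were 13948734 to 19988111, and their size limits the precision of low genes.

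Symbols gave the members. The members, lists and tests were chosen with earlier results of these data known. Counts were fitted with edgeR 4.0.16 (TMM, filterByExpr with a minimum count of 10, robust quasi-likelihood F-test, two-sided) in R 4.3.3 over all 12 samples with a term for the line, and p-values were Benjamini-Hochberg adjusted over all genes tested. The scripts were tested on simulated data. Named genes were keratins with 10 or more counts in every sample of a line, other keratins above 3 counts, ITGA2, the called partner genes with the largest change at an average log2 CPM of at least 1 (at most 3 a direction), and the 5 closest genes to 2 called keratins. KRT3, the partner genes called only with the block, the neighbourhood and the summed values were chosen for description after their values were seen. Likeness used log2(CPM + 0.5). Sequences, positions and 50-base windows came from GENCODE on GRCh38.

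Samples of a line carry replicate numbers in the labels, which call them biological replicates. Same-numbered samples of different lines deviated together. The correlation of their deviations from the line means was above 0.1 in 12 of 12 pairs (mean 0.378, range 0.135 to 0.554). The mean for different numbers was -0.126, which is not a separate contrast, since deviations from a line mean cancel out within the line. Because same-numbered samples deviated together, the fit with the number as a block is given beside a result where it changed a call. Libraries were run in lanes whose assignment is not given in the sources used here, and a lane effect was not tested. Alternatives were DESeq2 1.42.0, limma 3.58.1 with voom, other scalings and filters, the compared lines alone, the block and leaving out each sample. Proteins were not analysed here, and a few genes of the marker and likeness lists are not reported here.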

Additional observations from a re-analysis of the deposited data

How the results depend on the processing

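Leaving out each sample, the count of keratin genes called stayed at 0 for α2 against vector, and was 1 to 2 for α2 against DU145KO and 1 to 2 for vector against DU145KO. With the replicate block the counts were 2, 4 and 2. For α2 against DU145KO the count was 1 with DESeq2 size factors, 1 with no filter on low counts, 1 with the compared lines alone and 1 with a fold change above 2 required as well, and KRT18 was the gene lost in each. Its adjusted p in those fits other than the last was 0.0514 to 0.0551. For vector against DU145KO the count was 1 with the compared lines alone, where KRT86 had an adjusted p of 0.0697. KRT81 was called against DU145KO under all 20 alternatives in both transfected lines, with log2 fold changes of -1.40 to -1.06 (DU145KO+α2, adjusted p 9.68e-06 to 0.0194) and -1.53 to -1.23 (DU145KO+vector, adjusted p 7.36e-06 to 0.0285). Without gene length the summed keratin level was 1898 CPM in DU145KO, 1783 in DU145KO+vector and 1497 in DU145KO+α2, and the type II share 65.3%, 64.2% and 63.0%. The block changed no other keratin call than those of KRT8, KRT18 and KRT3.

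Directions turned as 1 sample was left out, for changes that had not passed the test. Against the vector line the log2 fold change of DU145KO+α2 ranged from -0.072 to 0.11 for KRT10, -0.15 to 0.14 for KRT15, -0.0059 to 0.14 for KRT80, -0.049 to 0.28 for KRT81 and -0.40 to 0.084 for KRT83. Against DU145KO it ranged from -0.082 to 0.098 for KRT10, -0.13 to 0.012 for KRT19 and -0.087 to 0.086 for KRT80. In DU145KO+vector against DU145KO it ranged from -0.089 to 0.041 for KRT10, -0.10 to 0.11 for KRT8 and -0.17 to 0.023 for KRT80. Counts of 6 to 51 a sample limit KRT32, KRT83 and KRT86.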

Other observations

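Keratin pseudogenes whose symbol ends in a P and a number were outside the gene set, and 3 of them, copies of the wound keratin gene KRT16, passed the filter on low counts. They were singled out after their values were seen. KRT16P3 had 13, 24, 29 and 30 counts in replicates 1 to 4 of DU145KO+α2 and 11, 2, 9 and 8 counts in DU145KO+vector. DU145KO had 9, 12, 7 and 23 counts. From vector to α2 the log2 fold change of KRT16P3 was 1.57 (SE 0.41, edgeR adjusted p = 0.0196). In the same comparison KRT16P2 had a log2 fold change of 0.94 (SE 0.32, edgeR adjusted p = 0.0777, and 0.000864 with the replicate block). KRT16P1 had 0.90 (SE 0.29, edgeR adjusted p = 0.0527, and 0.0172 with the block). Against DU145KO none of the 3 was called in DU145KO+α2, with log2 fold changes of 0.83, 0.40 and 0.50 for KRT16P3, KRT16P2 and KRT16P1. Their edgeR adjusted p was 0.212 to 0.521 without the block and 0.0526 to 0.173 with it. For DU145KO+vector against DU145KO the log2 fold changes were -0.74, -0.54 and -0.39 in the same order, with no call. KRT16 itself did not pass 4 counts in any sample. These copies are nearly identical, so which of them the reads came from is uncertain.

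In the groups of 4 replicates of the 11 keratin genes, 0 of 33 had a sample apart from the others by Dixon's ratio, where chance would give 1.65.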
